A study of Homo sapiens with 13 samples.

Results

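The transcription factor p53 is held at low levels in unstressed cells by the ubiquitin ligase MDM2 and its partner MDM4. DNA damage, nucleolar stress and other insults release it, and it then binds response elements in many genes that arrest the cell cycle, repair DNA, adjust metabolism or start apoptosis. Some of its targets, MDM2 among them, feed back to restrain it.

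Described here are 31 established p53 target genes and p53 regulators, chosen by name from 22613 entries and leaving aside CDKN1A, the target that encodes the cell cycle inhibitor p21. All 31 were found in the files and 0 fell below the filter of a mean of at least 0.5 FPKM (a fragment count adjusted for transcript length and library size), which with the removal of short RNAs left 15780 genes analysed. The samples were LNCaP-abl cells, a line derived from the LNCaP prostate cancer line, at passages 53 to 60. Each culture received 1 siRNA pool in a lipid reagent and was harvested after 72 h, and both the control and the knockdown cells were kept in serum stripped of steroids by charcoal. The 13 libraries were 1 control (siControl2) and 1 each for siBRCA1, siBRCA2, siCTCF, siEED, siEZH2, siFOXA1, siFOXM1, siKDM1A, siMALAT1, siPCAT1, siRAD21 and siSMARCA4.

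There was 1 library per group, so no difference below has a replicate check and none was tested. Differences are knockdown minus control on the log2(FPKM + 1) scale, which understates the change of low genes, and a difference of 1 or more is called 2-fold. All 12 comparisons share the same control library, so a value that is unusual in that library moves all of them. The values of the 13 libraries had nearly the same distribution, read depth is unknown, and in bulk RNA a change in how many cells express a gene cannot be told apart from a change per cell.

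Of the 11 siRNA targets analysed, 8 were lowest of all 13 libraries in their own library. BRCA1 was the 3rd lowest in its own, at 1.83 FPKM against 11.1 in the control. BRCA2 was the 9th lowest in its own, at 1.23 FPKM against 3.25 in the control. The transcript MALAT1 read 21.7 FPKM under the siMALAT1 label against 16.4 for the control, so a lowering of that target was not seen. The target of siPCAT1 was not analysed here. Of 10 luminal prostate markers, 9 reached 1 FPKM in at least 1 library, among them HOXB13 at 121 FPKM in the control, whereas KLK3, which encodes prostate-specific antigen, stayed between 0.0165 and 0.524 FPKM throughout. Among markers of other cell types, the basal keratin KRT14 reached at most 0.830 FPKM, the endothelial PECAM1 1.01, the fibroblast COL1A1 1.80 and the leukocyte PTPRC 3.14. The second leukocyte marker, CD68, was at 5.19 FPKM in the control and between 4.07 and 11.1 in the knockdowns. The part of other cell types in the values below was not tested.

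The p53 targets were higher than the control most broadly after CTCF knockdown. There, 15 of the 31 genes were at least 2-fold higher and 0 were 2-fold lower, where 1.27% of all genes analysed were 2-fold higher and 2.85% 2-fold lower. Their median difference was 0.95, against 0.04 over all genes analysed. The 15 came from several branches of the pathway, from the feedback inhibitor MDM2 to the secreted factor GDF15, the apoptosis effectors BBC3 and BAX and the mitochondrial enzyme FDXR. In siCTCF 22 of the 31 genes had their highest value of the 13 libraries, whereas 8.66% of all genes analysed did. CTCF, the protein that folds chromatin into insulated domains together with cohesin, was itself at 3.72 FPKM there and at 22.2 in the control.

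The siSMARCA4 library, depleted of an ATPase of the SWI/SNF remodelling complexes, was next. Its median was 0.56 and 8 of 31 genes were 2-fold higher (0.494% of all genes analysed), with 0 lower (1.97%). The siKDM1A library, low in a histone demethylase, had a median of 0.47. Only GDF15 and SESN2 passed 2-fold there (2 of 31, against 0.754% of all genes, with 0 lower against 1.55%), but 26 of 31 genes lay above the control, where 50.9% of all genes did. In siRAD21, depleted of a cohesin subunit, the median was 0.42 and 3 genes were 2-fold higher (0.906% of all genes) and 0 lower (1.88%). The siBRCA1 library showed a shallow shift of nearly the whole list. There 29 of 31 genes lay above the control, where 52.3% of all genes did, with a median of 0.35, yet 0 passed 2-fold in either direction (0.450% of all genes higher and 0.944% lower).

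In the siEZH2 library the median was 0.27, with 5 genes 2-fold higher (0.894% of all genes) and 0 lower (3.09%). In siEED, low in the partner subunit of the same Polycomb complex, the median was 0.09, with 3 genes 2-fold higher (0.817%) and 1 lower (0.741%). The siBRCA2 library had a median of 0.27, 1 gene 2-fold higher (0.767%) and 0 lower (0.760%).

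Over all genes analysed, the siFOXA1 and siFOXM1 libraries had the largest shares 2-fold higher of the 12 knockdowns. In siFOXA1 3 of 31 were 2-fold higher and 0 lower, where 3.52% of all genes were higher and 4.22% lower, and the median was 0.25. In siFOXM1 3 were higher and 1 lower, where 2.59% and 3.60% of all genes were, and the median was 0.16. Interferon-stimulated genes had their highest medians in these libraries, 3.93 over 22 genes in siFOXM1 and 2.38 in siFOXA1, and their part in the values of the p53 targets was not tested. In the library labelled siMALAT1 the median was 0.08 and in siPCAT1 0.15, with 0 of 31 genes past 2-fold in either direction in both. The shares of all genes were 0.387% higher and 1.57% lower in the former and 0.323% higher and 1.33% lower in the latter.

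**Figure D1:**
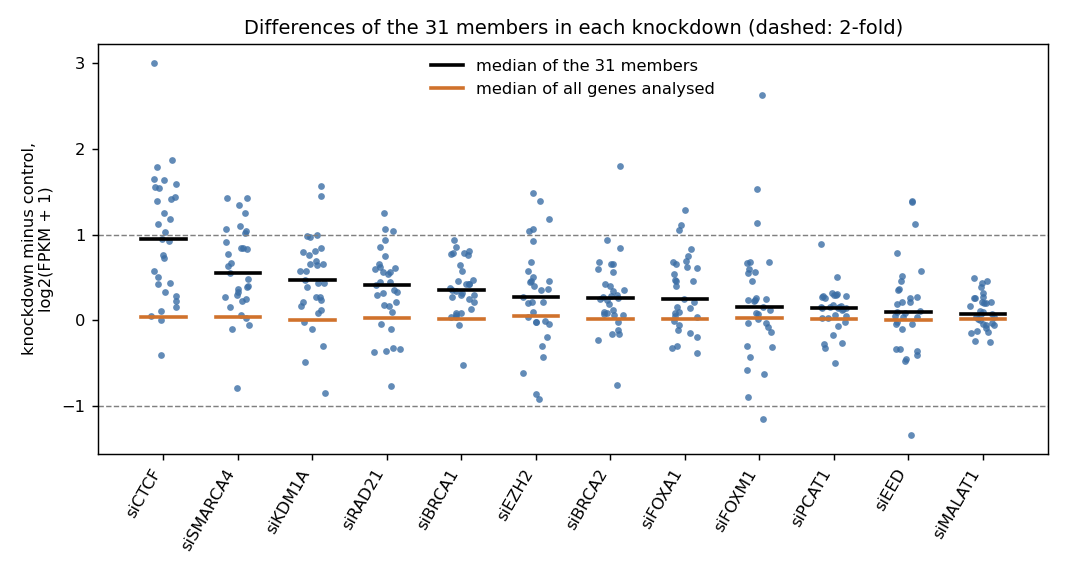
Difference of each of the 31 p53 target genes from the control on the log2(FPKM + 1) scale (y axis) in the 12 knockdown libraries (x axis, ordered by median). Each point is 1 gene, black bars are medians of the 31 genes and orange bars medians of all genes analysed; the black bar falls from 0.95 in siCTCF to 0.08 in the library labelled siMALAT1, while every orange bar lies near 0.

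Over the 372 pairs of a gene and a knockdown, 43 were at least 2-fold higher and 2 at least 2-fold lower, where 1.10% and 2.04% of such pairs were over all genes analysed. These came from 19 genes that were 2-fold higher in at least 1 knockdown and 2 genes, FAS and ASCC3, that were 2-fold lower in 1. Over all genes analysed, 7.43% were 2-fold higher and 9.14% 2-fold lower in at least 1 knockdown. The other 10 genes stayed within 2-fold of the control in all 12. The control itself had the lowest value of the 13 libraries for 8 of the 31 genes, where 4.87% of all genes analysed did, and it had the highest for 0, where 5.31% did. Those 8 genes, GDF15, BBC3, SESN2, BTG2, FDXR, PHLDA3, AEN and RPS27L, therefore lay above the control in all 12 knockdowns.

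Against the median of the other 11 knockdowns, which leaves the control out, the median of siCTCF was 0.72. There 6 genes, GDF15, MDM2, SPATA18, BAX, RPS27L and PLK3, were at least 2-fold above that reference, as were 0.564% of all genes. In siFOXM1 GDF15 and FAS were (1.44% of all genes). Single genes were above it in siEZH2 (TP53INP1, with 0.323% of all genes), siFOXA1 (RRM2B, with 2.40%) and the library labelled siMALAT1 (FAS, with 0.482%), and none in the other 7 libraries. The medians of siKDM1A and siSMARCA4 were 0.22 and 0.21. Those of the remaining 9 libraries lay between -0.26 in siPCAT1 and 0.09 in siBRCA1.

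**Figure D2:**
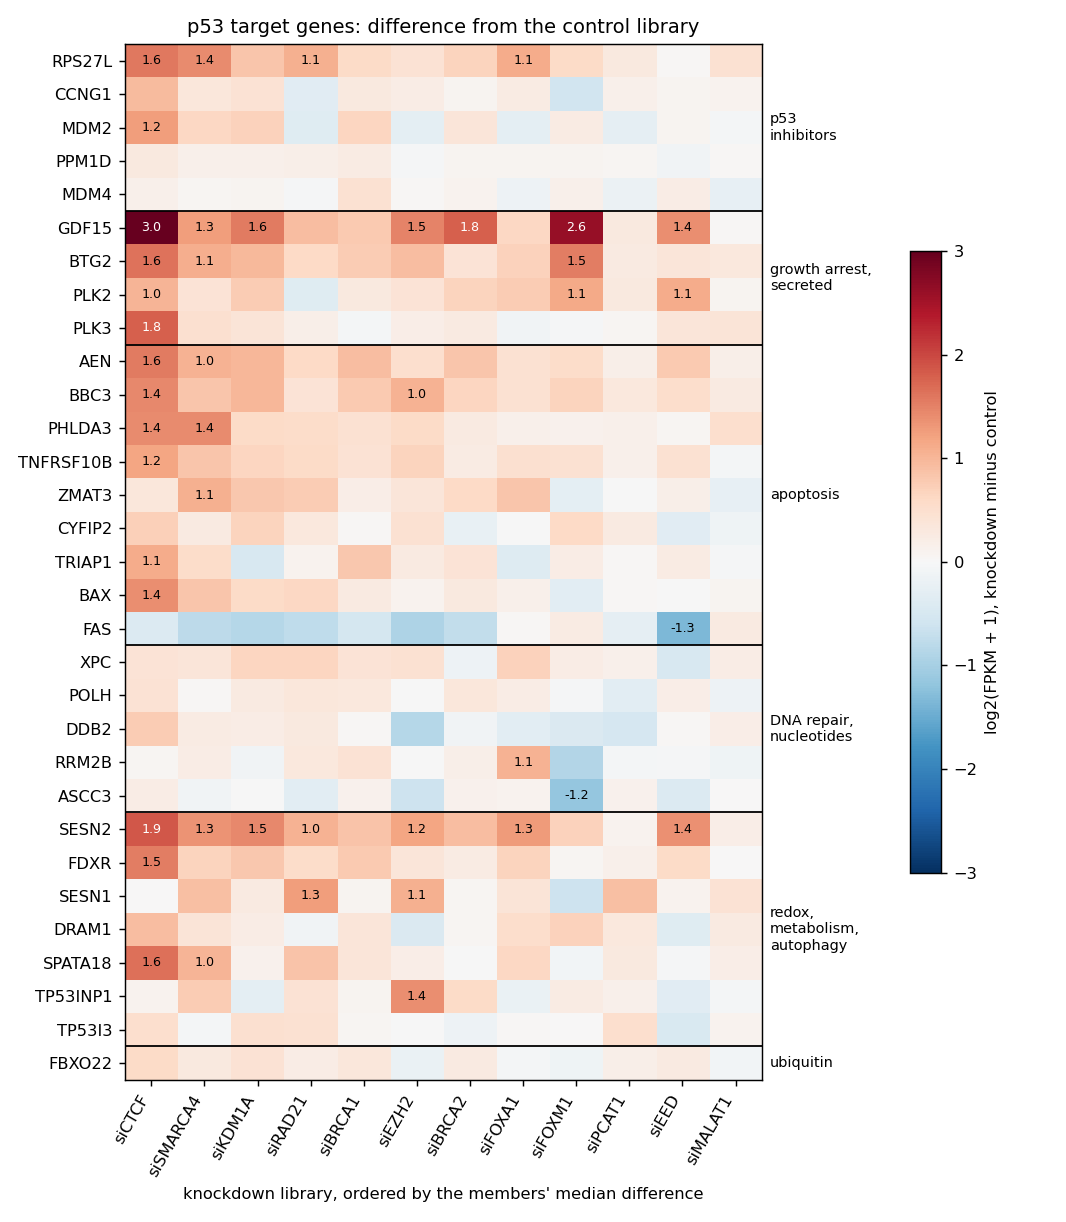
Difference from the control for each of the 31 genes (rows, grouped by role) in each knockdown (columns, ordered by median), coloured on the log2(FPKM + 1) scale from blue (lower) to red (higher), with values printed where a difference passed 2-fold. The siCTCF column is red in nearly every row, the DNA repair rows are pale in most columns, and the FAS row is blue in 9 of 12.

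CDKN1A, which is not counted among the 31, was at 22.5 FPKM in the control and between 24.99 in siPCAT1 and 440 FPKM in siCTCF, and it was 2-fold higher in 10 knockdowns. Most of the 31 genes ordered the libraries in part as CDKN1A did. Across the 13 libraries, 19 of 31 had a Spearman's rho with CDKN1A of at least 0.5, where 6.76% of all genes analysed did, and the median rho was 0.58 for the 31 genes and 0.01 for all genes. The highest were the nuclease gene AEN (Spearman's rho 0.91, Pearson's r 0.93), the ribosomal protein-like gene RPS27L (0.90 and 0.86), FDXR (0.88 and 0.87), the phosphatase gene PPM1D (0.85 and 0.75) and BAX (0.82 and 0.81). FAS had the lowest rho, -0.30, and SESN1 (0.02), TP53INP1 (0.08) and ASCC3 (0.16) were near 0. These correlations describe 13 libraries that share 1 control and 1 distribution of values. Without siCTCF and the control, the libraries farthest from the median in CDKN1A, 16 genes had a rho of at least 0.5 over 11 libraries, where 5.70% of all genes did, and the median was 0.50.

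**Figure D3:**
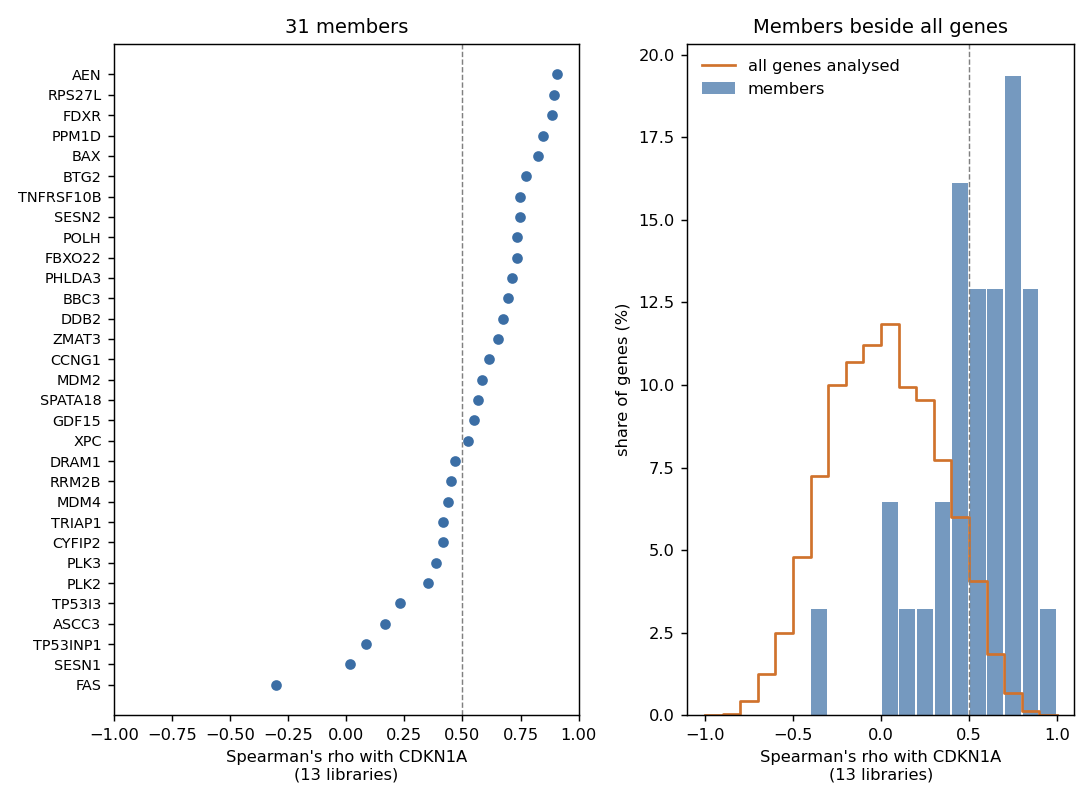
Spearman's rho of each of the 31 genes with CDKN1A over the 13 libraries (left) and the share of genes in each interval of rho (right, y axis in percent) for the 31 genes (blue bars) and all genes analysed (orange line). The dashed line marks 0.5, and 19 of the 31 genes lie to its right.

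The sequence just before the transcription starts of the 31 genes was searched for the p53 consensus decamer. A full response element holds a pair of this palindromic motif. The RefSeq promoter table for GRCh38.p14 had windows for 25 of the 31 genes and none for RRM2B, TNFRSF10B, PHLDA3, TP53INP1, FBXO22 and ASCC3. In the 250 bases upstream of a start, an exact match was present in 6 of the 25 genes, AEN, FAS, FDXR, PLK2, RPS27L and SESN1, and in 6.55% of the genes analysed that had a window. By window, these were 6 of 37 (16.2%) and 4.92%. The stretches are shown because they include the 3 genes whose levels followed CDKN1A most closely as well as FAS and SESN1, whose rho was -0.30 and 0.02. Each is written along the gene's own strand with up to 30 bases on either side, cut at the start site, and the capitals mark the decamer.
AEN, chr15:88621276-88621339, plus strand: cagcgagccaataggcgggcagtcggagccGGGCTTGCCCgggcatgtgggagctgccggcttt
RPS27L, chr15:63157497-63157566, minus strand: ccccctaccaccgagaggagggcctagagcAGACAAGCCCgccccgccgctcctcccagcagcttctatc
FDXR, chr17:74872995-74873035, minus strand: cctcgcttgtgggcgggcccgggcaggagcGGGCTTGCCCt
PLK2, chr5:58460179-58460248, minus strand: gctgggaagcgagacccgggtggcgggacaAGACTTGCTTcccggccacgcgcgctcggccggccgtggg
FAS, chr10:88991279-88991348, plus strand: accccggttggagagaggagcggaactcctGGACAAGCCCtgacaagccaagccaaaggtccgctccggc
SESN1, chr6:109008998-109009067, minus strand: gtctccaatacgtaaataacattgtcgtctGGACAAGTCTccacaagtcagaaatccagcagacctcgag
AEN and FDXR carried the same decamer. A match is a description of the letters only, and many p53 elements are known to lie in introns or farther upstream, outside these windows.

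Among the genes grouped as p53 regulators, RPS27L, which encodes a ribosomal protein homologue that binds MDM2, passed 2-fold most often. It was at 53.7 FPKM in the control. The knockdowns gave 80.6 in siBRCA1, 86.4 in siBRCA2, 164 in siCTCF, 55.1 in siEED, 73.4 in siEZH2, 117 in siFOXA1, 79.9 in siFOXM1, 97.2 in siKDM1A, 74.0 in the library labelled siMALAT1, 66.4 in siPCAT1, 114 in siRAD21 and 146 in siSMARCA4. It was thus above the control everywhere and 2-fold higher in 4 libraries, siCTCF (1.59), siSMARCA4 (1.43), siFOXA1 (1.11) and siRAD21 (1.07). RPS27L resembles RPS27 in sequence, and how reads common to both were assigned is not stated.

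MDM2, the ligase that marks p53 for degradation, was at 17.3 FPKM in the control and 42.5 in siCTCF (1.25), its 1 value past 2-fold. It was at 28.6 in siKDM1A, 27.7 in siBRCA1 and 27.3 in siSMARCA4. In 5 knockdowns it lay below the control, from 16.7 FPKM in the library labelled siMALAT1 to 13.2 in siRAD21. MDM2 therefore stood apart from the targets that were above the control everywhere. CCNG1, encoding cyclin G1, reached 153 FPKM in siCTCF against 78.5 in the control, just short of 2-fold (0.95), and was lowest in siFOXM1 at 52.3. PPM1D, a phosphatase that switches off the damage response, kept a narrow range from 4.21 to 5.83 FPKM. MDM4 ranged from 6.15 to 10.6 FPKM, its highest value being in siBRCA1.

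The genes for growth arrest and secreted signals had the highest medians of any role in siCTCF (1.71) and in siFOXM1 (1.33). GDF15, a secreted member of the TGF-beta superfamily, was at 4.13 FPKM in the control. It was at 7.78 in siBRCA1, 16.8 in siBRCA2, 40.1 in siCTCF, 12.5 in siEED, 13.3 in siEZH2, 6.87 in siFOXA1, 30.6 in siFOXM1, 14.2 in siKDM1A, 4.27 in the library labelled siMALAT1, 5.25 in siPCAT1, 8.78 in siRAD21 and 11.2 in siSMARCA4. The siCTCF and siFOXM1 values stood well above the rest, and 7 knockdowns passed 2-fold. BTG2, an antiproliferative gene, was at 6.60 FPKM in the control and 2-fold higher in siCTCF (22.6), siFOXM1 (21.0) and siSMARCA4 (15.3), with its lowest knockdown value, 8.09, in siPCAT1.

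The kinase genes PLK2 and PLK3, relatives of the mitotic kinase PLK1 with roles in stress responses, differed from each other. PLK2 was at 2.50 FPKM in the control and 2-fold higher in siFOXM1 (6.66), siEED (6.62) and siCTCF (6.12), and it was lowest in siRAD21 at 1.73. PLK3 was at 2.27 FPKM in the control and 10.3 in siCTCF (1.79). In the other 11 knockdowns it stayed between 2.03 and 3.56 FPKM. It was the 1 gene of the 31 that any library set apart, the siCTCF value being 1.31 log2 units above the next.

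**Figure D4:**
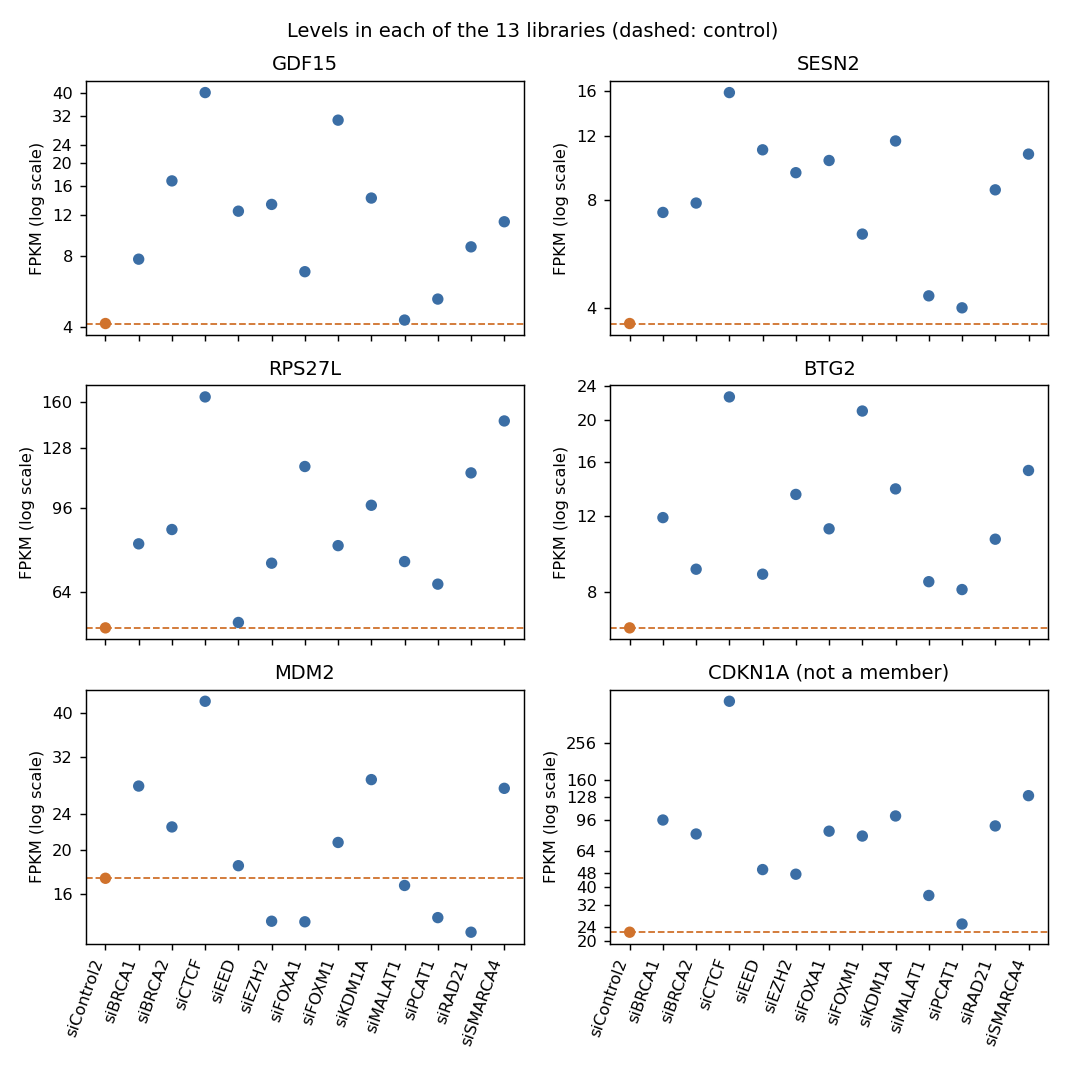
FPKM (log scale) of GDF15, SESN2, RPS27L, BTG2, MDM2 and CDKN1A in the control (orange) and the 12 knockdown libraries (blue), 1 point per library, with the control level dashed. MDM2 lies on both sides of the control, and the other 5 genes lie above it in every knockdown.

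The apoptosis genes had a median of 1.18 in siCTCF and 0.84 in siSMARCA4. Of the 9, 6 and 3 were 2-fold higher there, where 1.27% and 0.494% of all genes analysed were. BBC3, which encodes the BH3-only protein PUMA, was at 1.13 FPKM in the control and 2-fold higher in siCTCF (4.75) and siEZH2 (3.37), with 1.56 in the library labelled siMALAT1 as its lowest knockdown value. BAX, the pore-forming partner downstream of it, was at 7.46 FPKM in the control and 21.2 in siCTCF (1.39), and its lowest value was 5.82 in siFOXM1. AEN, an apoptosis-enhancing nuclease, was at 12.99 FPKM in the control, 40.2 in siCTCF (1.56) and 27.8 in siSMARCA4 (1.04), with 14.7 in siPCAT1 as its lowest knockdown value. PHLDA3, an inhibitor of AKT signalling, was at 20.5 FPKM in the control and reached 56.9 in siSMARCA4 (1.43) and 56.2 in siCTCF (1.41), with 21.3 in siEED as the lowest. Of these 4 genes, BBC3, BAX and AEN were highest in siCTCF, while PHLDA3 was about as high in siSMARCA4 as in siCTCF.

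The death receptors went different ways. TNFRSF10B, the TRAIL receptor DR5, was at 26.8 FPKM in the control and 62.1 in siCTCF (1.18), and it was below the control in the library labelled siMALAT1 alone, at 25.9. FAS was at 19.2 FPKM in the control and lower in 9 knockdowns, reaching 6.99 in siEED (-1.34), 9.66 in siEZH2 (-0.92) and 10.2 in siKDM1A (-0.85). Its 3 values above the control were 23.3 FPKM in the library labelled siMALAT1, 23.1 in siFOXM1 and 19.9 in siFOXA1. FAS was thus the exception in siCTCF, the 1 gene of the 31 below the control there, at 14.3 FPKM (-0.41).

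TRIAP1, a small p53-regulated inhibitor of apoptosis, was at 31.7 FPKM in the control and 70.2 in siCTCF (1.12), and it was lowest in siKDM1A at 22.4. ZMAT3, an RNA-binding regulator of splicing, was at 3.89 FPKM in the control and 9.23 in siSMARCA4 (1.06), and in siCTCF it was at 5.15 (0.33). CYFIP2, a subunit of the WAVE actin-regulating complex, stayed between 5.21 and 11.9 FPKM.

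In siCTCF the 5 DNA repair genes had the lowest median of the roles with more than 1 gene, 0.42. None passed 2-fold there, where 1.27% of all genes analysed were 2-fold higher and 2.85% lower. XPC, the damage sensor of nucleotide excision repair, ranged from 9.39 FPKM in siEED to 22.4 in siFOXA1, with 13.4 in the control. DDB2, which recognises UV lesions, was at 9.28 in the control, 16.4 in siCTCF (0.76) and 4.66 in siEZH2 (-0.86). POLH, the translesion polymerase eta, stayed between 5.20 and 9.48 FPKM.

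RRM2B, the p53-inducible subunit of ribonucleotide reductase, was at 20.3 FPKM in the control. It was highest in siFOXA1 at 43.1 (1.05) and lowest in siFOXM1 at 10.5 (-0.89), so the 2 libraries in which cell division genes were lowest lay at its opposite ends. ASCC3, a helicase used in alkylation repair, was at 20.6 FPKM in the control, 8.72 in siFOXM1 (-1.15) and 24.2 in siCTCF, its highest value. In siFOXM1 the median of the 5 repair genes was -0.42, while that of the 4 growth arrest genes was 1.33.

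Among the genes for redox balance, metabolism and autophagy, SESN2, a sestrin that restrains the growth kinase complex mTORC1, was 2-fold higher in 7 knockdowns. It was at 3.63 FPKM in the control. Its levels were 7.38 in siBRCA1, 7.84 in siBRCA2, 15.9 in siCTCF, 11.02 in siEED, 9.52 in siEZH2, 10.3 in siFOXA1, 6.43 in siFOXM1, 11.7 in siKDM1A, 4.33 in the library labelled siMALAT1, 4.01 in siPCAT1, 8.53 in siRAD21 and 10.7 in siSMARCA4. The siMALAT1-labelled and siPCAT1 libraries thus stayed close to the control and the other 10 lay above them. GDF15 and SESN2 were the 2 genes of the 31 that were 2-fold higher in 6 or more knockdowns, a mark that 0.361% of all genes analysed reached.

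The related SESN1 had another order of libraries. It was at 72.9 FPKM in the control, 2-fold higher in siRAD21 (175) and siEZH2 (154), at 73.1 in siCTCF (0.00) and lowest in siFOXM1 at 46.9 (-0.63). TP53INP1, a p53 cofactor with a role in autophagy, was at 43.3 FPKM in the control and 115 in siEZH2 (1.39), with 34.2 in siEED as its lowest value. SESN1 and TP53INP1 thus had their values past 2-fold outside siCTCF, and in siEED SESN1 was at 78.7 FPKM.

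FDXR, the mitochondrial ferredoxin reductase, was at 7.60 FPKM in the control and 23.99 in siCTCF (1.54), and the next highest value was 14.05 in siKDM1A. SPATA18, a mediator of mitochondrial quality control, was at 1.90 FPKM in the control and 2-fold higher in siCTCF (8.07) and siSMARCA4 (4.88), with 1.76 in siFOXM1 as the lowest. DRAM1, a lysosomal protein of autophagy, ranged from 2.68 to 8.41 FPKM and TP53I3, a quinone oxidoreductase, from 0.646 to 2.21, both highest in siCTCF and within 2-fold of the control. The F-box gene FBXO22 ranged from 11.0005 FPKM in siEZH2 to 19.6 in siCTCF, with 12.7 in the control.

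Of the 31 genes, 12 overlap an exon of another gene on the opposite strand in GENCODE 29, among them MDM2, FAS, BBC3, PLK3, SESN1 and TNFRSF10B. The sources used here do not state strand use, so reads of such overlapping genes cannot be told apart.

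Other genes of the pathway, listed by function and separate from the 31, gave the following. Of 22 analysed genes that act on or beside p53, such as its kinases and cofactors, 0 were 2-fold higher in any knockdown. Those 2-fold lower in at least 1 included the checkpoint kinases CHEK1 and CHEK2. CHEK1 was at 18.5 FPKM in the control and 5.28 in siFOXA1 (-1.64), 5.65 in siCTCF (-1.55), 6.15 in siEZH2 (-1.45) and 7.17 in siFOXM1 (-1.26). Of 60 further p53 targets, 12 were 2-fold higher and 4 lower in at least 1 knockdown, beside the shares of 7.43% and 9.14% over all genes. In siCTCF 3 of the 60 were higher (1.27% of all genes), GADD45A (1.17), TIGAR, listed as C12orf5 (1.05), and STEAP3 (1.04). The median of the 60 there was 0.39, with 53 above the control. Of the 60, 15 had a rho with CDKN1A of at least 0.5, where 6.76% of all genes did. Their median rho was 0.34, against 0.58 for the 31 genes.

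In siFOXA1, where 3.52% of all genes were 2-fold higher, 7 of these 60 were, among them SERTAD1 (1.57), SERPINB5 (1.45), FUCA1 (1.34) and the BH3-only gene PMAIP1 (1.17). In siFOXM1 5 were higher (2.59% of all genes), with PMAIP1 at 8.02 FPKM against 2.35 in the control (1.43). In siSMARCA4 1 of the 60 was 2-fold higher (0.494% of all genes), and their median was 0.24. In each of the remaining libraries 0 were, where the shares of all genes ran from 0.323% in siPCAT1 to 0.906% in siRAD21. E2F7, a repressor of the E2F programme that p53 is known to induce, was instead 2-fold lower in 6 libraries, from 0.0720 FPKM in siFOXM1 to 0.683 in siPCAT1 against 2.43 in the control. PERP, a membrane protein of desmosomes and apoptosis, was at 32.6 FPKM in the control, 10.2 in siEED (-1.59) and 11.7 in siEZH2 (-1.41).

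Several of the 31 genes, GDF15, SESN2 and TNFRSF10B among them, are also known targets of the stress factor ATF4 or its partner CHOP. Genes of the ATF4 and unfolded protein responses had medians over 24 genes from -0.20 in siPCAT1 to 0.47 in siEED, with 0.42 in siCTCF and 0.12 in siSMARCA4. DDIT3, which encodes CHOP, was 2-fold higher in 6 libraries, at most 80.2 FPKM in siFOXM1 against 32.01 in the control. CHAC1 was at 2.19 FPKM in the control and 12.6 in siEED (2.09). The part of that response in the values of GDF15 and SESN2 was not tested.

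Activated p53 is known to lower cell division genes through p21. The median of 25 G2/M genes was below the control in all 12 knockdowns, and its order of libraries differed from that of the p53 targets. It was lowest in siFOXA1 (-3.31), siFOXM1 (-3.16) and siEZH2 (-3.01), where target medians were 0.25, 0.16 and 0.27, and at -2.46 in siCTCF, where the target median was 0.95. The library labelled siMALAT1 and siPCAT1 had G2/M medians of -1.39 and -1.35 with target medians of 0.08 and 0.15, while siKDM1A had -1.03 with 0.47. In siEED and siBRCA2, with G2/M medians of -0.28 and -0.35, GDF15 was 2-fold higher, at 1.39 and 1.80. The part of p53 and p21 in the G2/M values was not tested.

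**Figure D5:**
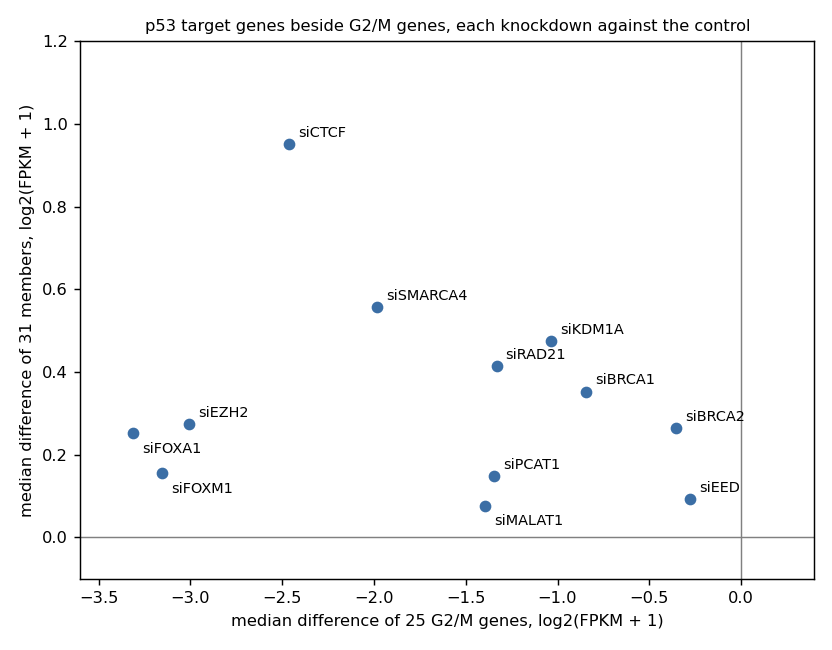
Median difference from the control of the 31 p53 target genes (y axis) beside that of 25 G2/M genes (x axis) on the log2(FPKM + 1) scale, 1 point per knockdown library. All points lie left of 0; siCTCF is highest at 0.95, and the 3 libraries with the lowest G2/M medians have target medians from 0.16 to 0.27.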

How the data were processed

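RNA sequencing of 13 libraries of LNCaP-abl cells, 1 per siRNA pool, was analysed. Libraries were made with a TruSeq RNA kit, per the labels' protocols, and reads were processed with TopHat and Cufflinks on hg19, per the submitters' processing notes, which give no versions. The authors deposited log2 values of FPKM for 22613 entries. Their floor is the log2 of 0.1, so an offset of 0.1 was subtracted and values under 1e-09 were set to 0. Sorted values differed by at most 0.0562 between libraries, so a common distribution had been imposed, which no label records. The floor held 1528 to 1821 entries in each library. Depth is unknown, and no counting intervals can be given.

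From these, log2(FPKM + 1) was computed for the 15780 genes with a mean of at least 0.5 FPKM, leaving out 759 entries named as small RNAs. Knockdown minus control differences were counted at 1 or more, and the same shares were computed over all genes. The counting was run on simulated data with large changes built in, which checks the code only and not the counts given here. With 1 library per group no test was made. The genes and lists were chosen with earlier results of these data known. All 31 genes are accounted for. Values in every library are given for those at least 2-fold from the control in 4 or more knockdowns, the control, extremes and libraries past 2-fold for those in 1 to 3, and the range for the rest. Other genes named within the lists were chosen after their values were seen. Alternatives were a pseudocount of 0.1, no filter, quantile normalization, centring on the median, and the median of the other 11 knockdowns as reference. Promoter windows came from RefSeq on GRCh38.p14, another build than that of the files, and overlaps of exons from GENCODE 29. Python 3.11.15, numpy 2.4.6, pandas 2.3.3 and matplotlib 3.10.9 were used. Some results are not reported here.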

Additional observations from a re-analysis of the deposited data

How the results depend on the processing

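The reference mattered most. Against the median of the other 11 knockdowns, the number of target genes at least 2-fold higher was 6 in siCTCF in place of 15, 2 in siFOXM1, 1 each in siEZH2, siFOXA1 and the library labelled siMALAT1, and 0 in siBRCA2, siEED, siBRCA1, siPCAT1, siKDM1A, siRAD21 and siSMARCA4. Over all genes the share 2-fold higher lay between 0.120% in siSMARCA4 and 2.40% in siFOXA1, and the share lower between 0.203% in siSMARCA4 and 2.49% in siFOXA1. The number 2-fold lower was 0 in siEED, 1 in siRAD21 and the library labelled siMALAT1, 2 in siFOXM1 and siPCAT1, and 0 in the remaining 7. The median difference was 0.089 in siBRCA1, -0.016 in siBRCA2, -0.16 in siEED, -0.064 in siEZH2, 0 in siFOXA1, -0.19 in siFOXM1, 0.22 in siKDM1A, -0.22 in the library labelled siMALAT1, -0.26 in siPCAT1, -0.015 in siRAD21 and 0.21 in siSMARCA4. Of the 45 single differences past 2-fold, 10 stayed past it, and 2 changed sign, GDF15 in siSMARCA4 (-0.14) and SESN2 in siRAD21 (-0.14). This reference is itself made of treated libraries.

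With a pseudocount of 0.1 the number 2-fold higher was 2 in siBRCA1, 2 in siBRCA2, 5 in siKDM1A and 5 in siRAD21, and all 45 differences stayed past 2-fold. A smaller pseudocount enlarges the differences of all low genes. No shares of all genes are given at this setting, so whether the higher counts are particular to the target genes was not tested. Without the filter and with quantile normalization all 45 also stayed past 2-fold, but these settings are no check of the differences. Dropping the filter could not change them, because every target gene passed it. Quantile normalization could hardly change them, because the libraries already shared a common distribution of values. With centring 42 stayed past 2-fold. The count of genes with a rho of at least 0.5 with CDKN1A lay between 16 and 20 under its alternatives. These include leaving out the library labelled siMALAT1, added after seeing the data, which gave 18 and left the number of genes 2-fold higher in 6 or more knockdowns at 2. With 1 library per group, no replicate could be left out and no spread estimated. Low levels, such as those of TP53I3, BBC3 and SPATA18, are the least precise here, by an amount that unknown depth keeps from being stated.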
